A study of Arabidopsis thaliana with 75 samples.

Results

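The genes described here are those whose transcripts gained an N6-methyladenosine (m6A) peak in wild-type Arabidopsis seedlings treated with flg22. A gene was chosen when the summit of at least 1 peak lay in it in all 3 Col-0 flg22 lists and in neither of the 2 untreated Col-0 lists, and when its mRNA had a mean counts-per-million (CPM) value of 10 or more in both Col-0 groups. Of 10227 genes with that CPM minimum, 191 met the rule, which is 1.87%. Before the CPM minimum 372 of 32844 gene loci met it. The 191 genes held 930 peaks in the 3 flg22 lists (303, 348 and 279), of 51989 peaks in these lists and 497462 in the 26 lists of the series. The authors' peak lists of Col-0 seedlings chose the genes, so the presence of these peaks is a description and not a finding.

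m6A is a methyl mark on adenosines inside mRNA. A writer complex with the methyltransferase subunit MTA places it, demethylases such as ALKBH10B remove it, and proteins with a YTH domain bind it. In plants most m6A lies near the 3′ end of transcripts, and the mark is known to affect how long an mRNA lasts and how it is processed. flg22 is a peptide of bacterial flagellin that plants sense with the receptor kinase FLS2. Its perception starts kinase signalling, ethylene synthesis and the production of indole defence compounds.

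The study profiled m6A, mRNA and uncapped RNA in seedlings of 3 lines. Col-0 is the wild type, mta is a line named after the writer subunit, and 35SALKBH10B overexpresses the demethylase from the 35S promoter; details of the mta allele are not given in the sources used here. Seedlings were 14 days old and either untreated or kept for 4 h in 1 µM flg22, with 3 samples per group, except that untreated Col-0 m6A is used here from replicates 2 and 3. Leaves of 4-week-old Col-0 and mta plants form groups named 00 and 24 after their titles, because one label names a bacterium and another flg22 as the treatment. Untreated seedlings were sampled at 4 h for mRNA but, according to their names, at the start for m6A and uncapped RNA. In the peak lists and in uncapped RNA, flg22 and 4 h of time therefore cannot be told apart. mRNA of 35SALKBH10B, m6A of mta leaves at 24 and untreated Col-0 m6A replicate 1 are not analysed here. Whether replicates were separate cultures is not stated, and the spread behind the p-values may therefore be technical.

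Seedling mRNA libraries held 9442047 to 13222937 reads in genes, leaf libraries 20467621 to 44052628 and uncapped-RNA libraries 3107893 to 41465534. The peak lists give no read depth. The seedling counts did not separate the strands. Markers of green tissue were abundant in all 6 Col-0 seedling mRNA libraries, and LHCB2.1 stood at 1301 to 1388 CPM untreated and 314 to 363 CPM with flg22. Of 3 root markers tested, COBL9 and PRP3 were at 0 with flg22 and at 0.290 to 3.05 CPM untreated, but SCR stood higher with flg22, at 35.6 to 39.8 CPM against 25.2 to 32.6 CPM, while the seed marker EM6 was at 0 untreated and at 3.17 to 5.78 CPM with flg22. Fewer cells of a type and less RNA per cell cannot be told apart in such bulk samples, and the part of cell composition in the results was not tested. Some libraries stood apart. The shallowest uncapped-RNA library was untreated Col-0 replicate 2, and in the third flg22 library of uncapped RNA of 35SALKBH10B several defence genes stood far below the other two. Untreated 35SALKBH10B m6A replicate 1 listed a peak in 11742 genes, against 9531 and 9911 in replicates 2 and 3.

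The genes came from all 5 chromosomes, with 52, 33, 29, 27 and 50 on chromosomes 1 to 5, and 95 of them carry no symbol in RefSeq beyond their locus number. In the lists the rule used, their peaks were weaker and narrower than those of genes marked throughout, as were those of the 129 genes of the opposite rule (a peak in both untreated lists and in no flg22 list). The median fold enrichment of the highest peak, a ratio over the caller's background that the authors deposited, was 4.13 in the 191 genes and 5.02 in the 6972 genes with a peak in all 5 Col-0 lists. Peak width had a median of 150.5 bases in the 191 genes and 221 bases in the genes marked throughout. The 129 genes of the opposite rule had a median enrichment of 4.42 and a median width of 144 bases in the untreated lists, and 43.8% of their highest peaks had a −log10 q under 5. The −log10 q of the highest peak lay under 5 in 37.7% of cases in the 191 genes, 15.6% in the genes marked throughout and 20.5% in all genes with the CPM minimum. A single peak in the gene was found in 60.0% of cases for the 191 genes, in 82.6% under the opposite rule and in 48.8% for all genes with the CPM minimum. The mean fold enrichment over the 3 lists ran from 2.01 to 9.88 among the 191 genes, with a median of 4.21.

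Between the gained and the opposite class lay 364 genes with a peak in all 3 flg22 lists and 1 of 2 untreated lists, and 170 with a peak in 2 of 3 flg22 lists and no untreated list. At the edge of the CPM minimum, ATGLR1.2 was the lowest gene inside at 10.04 CPM untreated and 155 CPM with flg22 (scaled by the library sum). AT1G57700 had 10.04 CPM and AT3G08890 10.2 CPM in its lower group. Just outside stood AT1G10990 at 9.95 CPM, CCOAMT at 9.91 CPM and VSP1 at 9.90 CPM.

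The summits lay further from the 3′ end than in other genes. Of the 930 summits, 32.6% lay in the last 20% of the gene span and 15.6% in the first 20%, while the 6972 genes marked throughout had 40.2% and 8.95%. In the 129 genes of the opposite rule 57.9% of the summits in the untreated lists lay in the last 20% and 7.40% in the first. The span runs from the first to the last base of the gene and includes introns, since exon annotation was not used here. The position moved with the mRNA change. Among the 191 genes, the 117 whose mRNA rose at least 2-fold had 17.8% of summits in the first 20% of the span and 28.0% in the last 20%, and the other 74 genes had 10.8% and 42.7%. Among genes marked throughout, the 991 that rose at least 2-fold had 12.9% and 32.2%, and the other 5981 had 8.16% and 41.8%. In the last 20% the 74 genes thus stood close to the 5981.

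**Figure D1:**
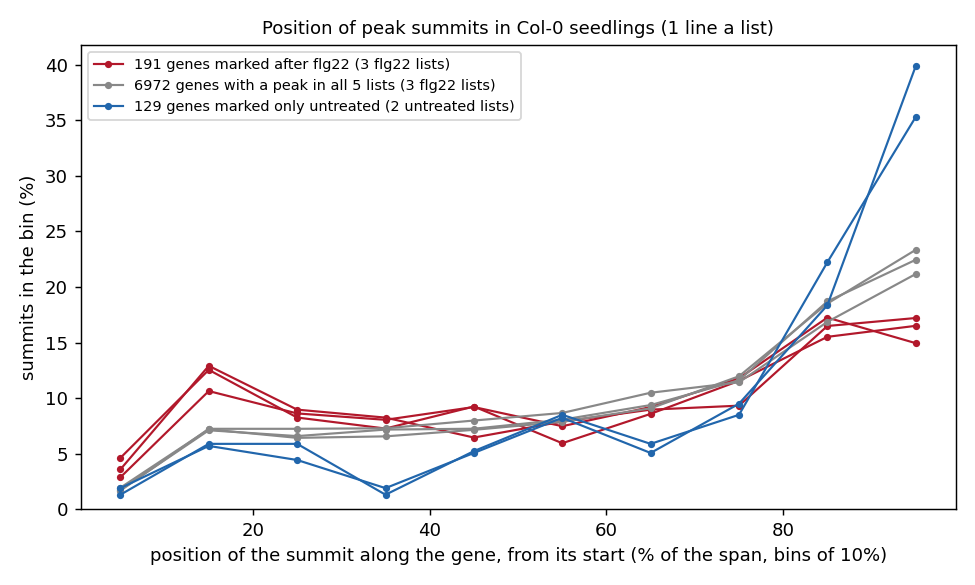
Share of peak summits (%) in each 10% bin of the gene span, from the gene's start to its end, with 1 line per Col-0 seedling list. In the last 10% the 191 genes marked after flg22 stay lowest and the 129 genes of the opposite rule highest, and in the bin from 10% to 20% the order is reversed.

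The flg22 lists of the other lines placed the peaks about as far from the Col-0 summits as the Col-0 flg22 lists lay from each other. From the highest summit of a gene in a Col-0 flg22 list, the nearest summit in the mta flg22 lists lay at a median of 27 bases (175 genes) and in the 35SALKBH10B flg22 lists at 25 bases (163 genes). The distance between the Col-0 flg22 lists themselves was 26.5 bases. Within 50 bases lay 58.4% (mta), 62.6% (35SALKBH10B) and 58.7% (Col-0) of these nearest summits. In the untreated lists it was 69 bases for mta (146 genes) and 36 bases for 35SALKBH10B (105 genes). The leaf lists were further off, at 181 bases at 24 and 137 bases at 00. Genes marked throughout also had distant leaf summits, at 127 and 121 bases. Within the Col-0 lists, the highest summits of a gene spread over a median of 144 bases, and in 59 genes all 3 lay within 50 bases. No sequence of these sites is printed, since no genome of the files' build was used here.

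Among the defence genes, ACS2 carried the highest enrichment. ACS2 encodes an ACC synthase, which makes the precursor of ethylene, and lies at chr1:175706-178406 on the plus strand (TAIR10). Its highest peak had a fold enrichment of 9.71, 9.07 and 10.9 in the Col-0 flg22 lists, with summits 8.00% to 9.07% along the gene. In mta its enrichment was 9.91, 12.9 and 12.7 with flg22 and 8.64, 8.36 and 10.3 untreated. Every mta list thus held a peak in the gene, while its absence from the untreated Col-0 lists was required by the rule. In 35SALKBH10B it was 11.2, 13.3 and 11.1 with flg22 and 4.28 in 1 of 3 untreated lists. Its mRNA stood at 20.9, 17.4 and 19.8 CPM in untreated Col-0 and at 241, 239 and 218 CPM with flg22. In mta it stood at 90.8, 88.0 and 91.8 CPM untreated and at 173, 187 and 172 CPM with flg22. ACS2 was thus high in untreated mta, at over 4 times the Col-0 level, and its groups did not overlap in either line.

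Of the 18 indole defence genes with the CPM minimum 3 met the rule (1.87% of all genes with the CPM minimum), and the other 15 carried a peak in all 5 lists. IGMT1 and IGMT2 encode methyltransferases that modify indole glucosinolates, and CYP82C2 a cytochrome P450 of the synthesis of an indole carbonyl nitrile. IGMT1 (chr1:7386762-7388512, minus strand) rose in Col-0 from 13.6, 13 and 14.3 CPM to 158, 149 and 150 CPM. IGMT2 (chr1:7395179-7396823, minus strand) rose from 14.0, 18.5 and 16.0 CPM to 376, 357 and 342 CPM. The neighbouring copy IGMT3 also met the peak rule, and reads of these near-identical genes may be shared, so each level is uncertain. CYP82C2 (chr4:15462350-15464563, plus strand) rose from 8.61, 12.9 and 12.8 CPM to 574, 563 and 568 CPM. In mta CYP82C2 started at 80.9, 86.1 and 84.4 CPM and reached 921, 952 and 961 CPM, above every Col-0 flg22 library. Its highest peak lay 7.82% to 8.99% along the gene in the Col-0 flg22 lists. A peak anywhere in CYP82C2 was also listed in all 3 untreated mta lists and in 2 of 3 untreated 35SALKBH10B lists.

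Of the 17 genes of the PTI response (pattern-triggered immunity) with the CPM minimum 2 met the rule (1.87% of all genes with the CPM minimum) and 14 carried a peak in all 5 lists. PROPEP2, the precursor of a danger peptide, rose in Col-0 from 9.90, 12.4 and 7.93 CPM to 198, 180 and 227 CPM, and its enrichment was 2.21, 1.82 and 2.01. YLS9, also named NHL10 and widely used as a marker of the flg22 response, rose from 21.8, 21 and 21.9 CPM to 417, 308 and 324 CPM. Its enrichment was 3.98, 2.31 and 1.93, and its highest summits moved between 26.4% and 53.0% of the span. Both genes thus combined a strong rise of mRNA with weak peaks.

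The salicylic acid list gave 1 gene of 15 and the NLR receptors 1 of 11. PBS3, an enzyme of salicylic acid synthesis, rose from 21.9, 19.1 and 19.1 CPM to 67.1, 86.8 and 74.7 CPM, with an enrichment of 5.96, 5.53 and 7.83. RRS1, an intracellular immune receptor, stood at 12.9, 13.3 and 10.9 CPM untreated and at 15.8, 23.6 and 18.2 CPM with flg22. Of the 26 genes of jasmonate and ethylene with the CPM minimum, ACS2 alone met the rule and 17 had a peak in all 5 lists. Of 17 RNA decay genes AT3G58560, the deadenylase CCR4A, met it with an enrichment of 5.28, 4.99 and 4.22. Its mRNA stood at 79.7, 76.0 and 86.1 CPM untreated and 86.2, 78.5 and 77.7 CPM with flg22, so the peaks came with mRNA levels that overlapped. None of 22 genes of PTI signalling, 24 of photosynthesis, 14 of the m6A machinery or 13 chaperones met the rule. Of all genes with the CPM minimum 1.87% met it. At that share a list of such size holds few or no genes, so these counts are not read as results on the functions.

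**Figure D2:**
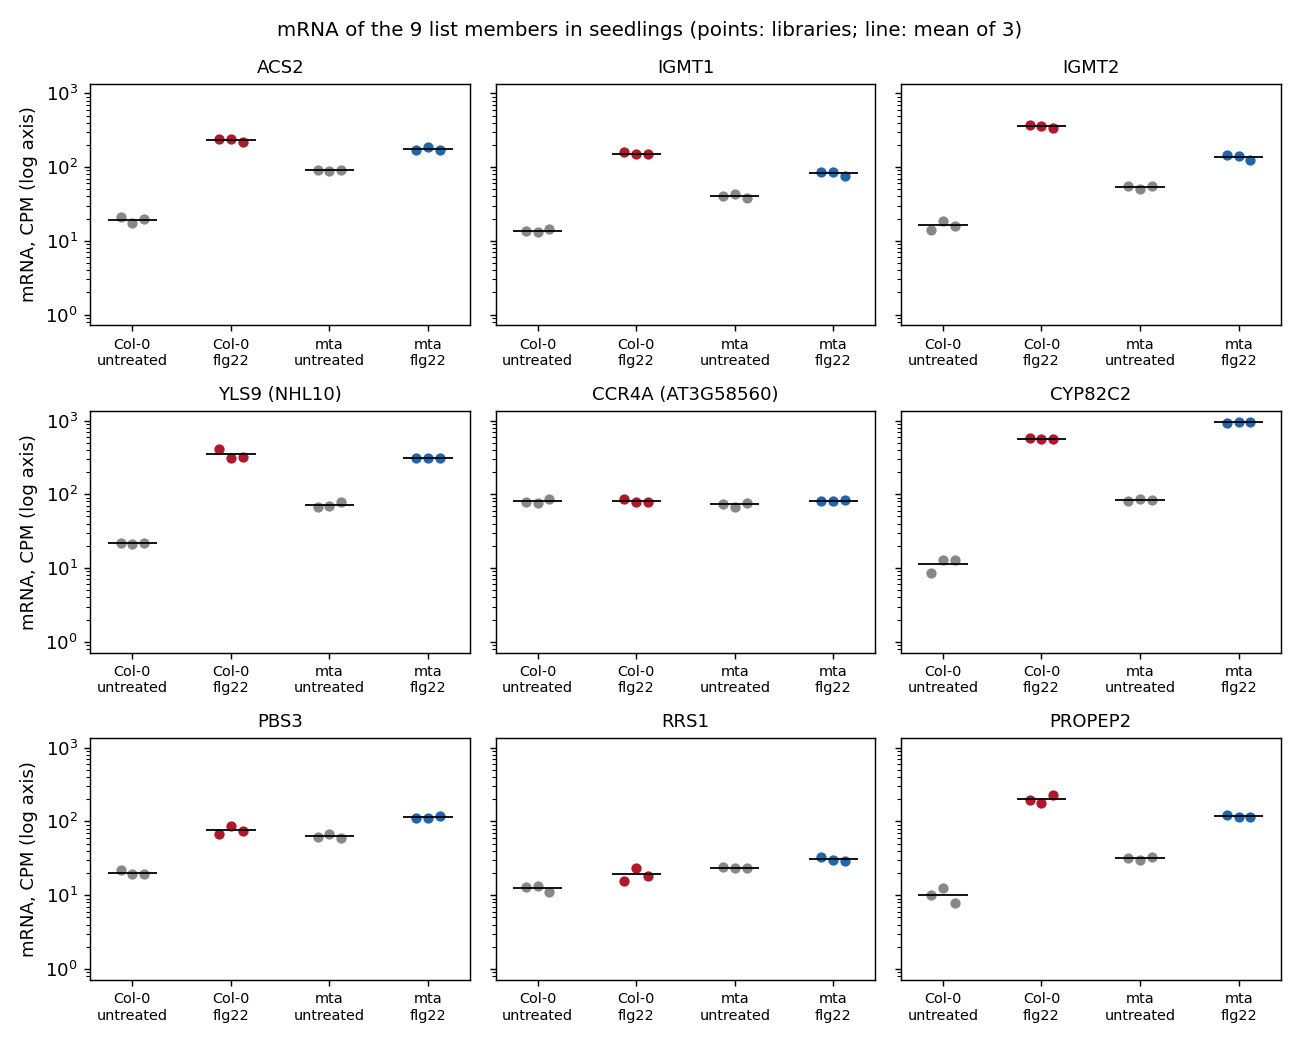
mRNA (CPM, log axis) of the 9 genes that stand in a functional list, in untreated and flg22-treated Col-0 and mta seedlings; points are libraries and lines the mean of 3. ACS2, IGMT1, IGMT2, CYP82C2, YLS9, PROPEP2, PBS3 and RRS1 are higher in every untreated mta library than in any untreated Col-0 library, and CCR4A stays between 67.6 and 86.2 CPM throughout.

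In Col-0 the mRNA of these genes mostly rose with flg22. By edgeR's quasi-likelihood test 166 of 191 rose (41.5% of all genes with the CPM minimum), 117 of them at least 2-fold (14.9%), and 4 fell (27.6%). The median log2 fold change was 1.37, against 0.13 over all genes with the CPM minimum. Scaling by the library sum in place of TMM shifts the median of all tested genes from −0.10 to −0.47 and that of the 191 genes to 0.99. This is the contrast the peak rule used, so these counts are given as a description. Read from the other side, 7.68% of the 1524 genes that rose at least 2-fold met the rule, 1.80% of the 2719 that rose less, 0.664% of the 3165 that did not pass and 0.150% of the 667 that fell at least 2-fold. The opposite rule ran the other way, with 0.328% of the genes that rose at least 2-fold and 6.45% of those that fell at least 2-fold. Median mRNA of the 191 genes was 21.4 CPM untreated and 46.2 CPM with flg22. For the 129 genes of the opposite rule it was 32.4 and 14.4 CPM, scaled by the library sum. Whether peaks followed the level of the RNA was not tested.

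Peroxidases and other secreted or metabolic enzymes rose most beside the genes of the lists. PRX52, a class III peroxidase, rose in Col-0 from 21.2, 19.8 and 19.6 CPM to 1021, 817 and 980 CPM, a log2 fold change of 5.54 ± 0.09 (SE). AT1G14550 rose by 5.49 ± 0.12, PER4 by 4.67 ± 0.08 and AT4G08780 by 4.44 ± 0.13, all peroxidases. AT1G26410, of the berberine bridge enzyme family, rose by 4.54 ± 0.08 and the glutamate receptor-like channel ATGLR1.2 by 4.32 ± 0.11, where reads may be shared with its near copy GLR1.3. Other strongly marked genes were AT5G45000, with enrichments of 7.13, 7.18 and 6.47, RABA1e, a small GTPase, with 8.21, 8.64 and 9.38, and GSTU10, a glutathione transferase, with 7.33, 6.61 and 7.70. The AT1G12200 gene, named FMO in RefSeq and distinct from FMO1, had 7.42, 7.79 and 7.49. MLO6, a membrane protein of powdery mildew susceptibility, had enrichments of 6.74, 6.17 and 7.70, with summits 7.83% to 7.88% along the gene. A gene of the other strand overlaps 98.4% of GSTU10 and 29.1% of MLO6, and the mRNA counts, unlike the peaks, do not tell the strands apart.

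The 4 genes that fell in Col-0 included a pair of cuticle genes. KCS6 and KCS10 encode enzymes that elongate very-long-chain fatty acids. KCS6 stood at 164, 160 and 173 CPM untreated and at 97.9, 74.9 and 76.3 CPM with flg22 (−0.99 ± 0.09), and KCS10 went from 137, 134 and 137 to 92.9, 98.3 and 87.1 CPM (−0.55 ± 0.09). RPA1A, a subunit of replication protein A, fell by 1.35 ± 0.07 on the log2 scale and AT5G41680 by 0.36 ± 0.11. A gene of the other strand overlaps 35.9% of RPA1A and 19.8% of AT5G41680.

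The genes also rose in mta, where the mRNA libraries are independent of the rule. By edgeR's quasi-likelihood test with Benjamini-Hochberg adjustment 145 of 191 rose (33.9% of all genes with the CPM minimum), 5 fell (22.7%) and 41 did not pass. The median log2 fold change was 0.64, against 0.10 over all genes with the CPM minimum. CYP82C2 rose by 3.49 ± 0.08 (adjusted p = 2.7e-28), AT1G14550 by 3.41 ± 0.11 (adjusted p = 5.8e-25) and PER4 by 2.70 ± 0.07 (adjusted p = 2.9e-27). PRX52 stood at 182, 176 and 204 CPM untreated and at 1204, 1204 and 1227 CPM with flg22. YLS9 rose from 66.8, 69.7 and 78.4 CPM to 313, 312 and 306 CPM (2.11 ± 0.09, adjusted p = 4.2e-21). ACS2 rose by 0.97 ± 0.08 (adjusted p = 7.3e-13) and PBS3 by 0.86 ± 0.10 (adjusted p = 2.0e-09). CCR4A did not pass (0.17 ± 0.09, adjusted p = 0.12). The genes that fell were KCS6 (−0.51 ± 0.09), KCS10 (−0.83 ± 0.09), RPA1A (−0.74 ± 0.07), AT1G78820 (−0.37 ± 0.12) and ABCF1 (−0.29 ± 0.08).

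For most genes mta showed a smaller rise than Col-0. The difference of the responses was negative past the threshold for 111 of 191 genes (19.3% of all genes with the CPM minimum) and positive for 2 (7.85%), with a median of −0.62 against −0.06. It holds the Col-0 contrast that the rule used and is given as a description. The start was higher as well. In untreated seedlings 101 of 191 genes were higher in mta than in Col-0 (23.8%) and 17 lower (24%), with a median log2 difference of 0.38 against −0.02. The number lower was 7 without untreated Col-0 replicate 2, 9 without replicate 3, 8 without untreated mta replicate 1 and 11 without replicate 2, and 0 were lower at least 2-fold. This comparison shares the untreated Col-0 libraries with the rule's CPM minimum. Among the genes lower in untreated mta were the ammonium transporters AMT1;1 (−0.22 ± 0.08) and AMT2 (−0.35 ± 0.09), and KCS6 (−0.58 ± 0.09).

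Part of the 191 genes had a peak in untreated mta as well. Their absence from the 2 untreated Col-0 lists was set by the rule, so it is not a result to compare with mta. Peaks were listed for 98, 112 and 115 of the 191 genes in the untreated mta lists and for 170, 128 and 152 in the mta flg22 lists. These are 51.3% to 60.2% and 67.0% to 89.0% of the genes, against 80.7% to 82.9% and 67.4% to 82.0% of all genes with the CPM minimum. In all 3 untreated mta lists the share among the 191 genes lay below that of all genes with the CPM minimum. All 3 untreated mta lists held a peak in 71 genes and none did in 45. Over all 10227 genes with the CPM minimum, none did in 1316, and the count for all 3 lists was not made. In the 71 genes mRNA was higher in untreated mta than in Col-0 for 49, with a median log2 difference of 0.81, and in the 45 genes for 18, with a median of 0.28. Genes with a peak in 1 or 2 untreated mta lists had medians of 0.15 (38 genes) and 0.38 (37 genes). The median level in untreated mta was 40.5 CPM for the 71 genes and 20.8 CPM for the 45, while in untreated Col-0 it was 19.5 and 15.6 CPM. Genes with a peak in 1 or 2 untreated mta lists had median levels there of 30.1 and 23.5 CPM. The median level and the median difference were thus highest in genes with a peak in all 3 untreated mta lists. Neither rose step by step with the number of lists. The part of the level in the peak calls was not tested.

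**Figure D3:**
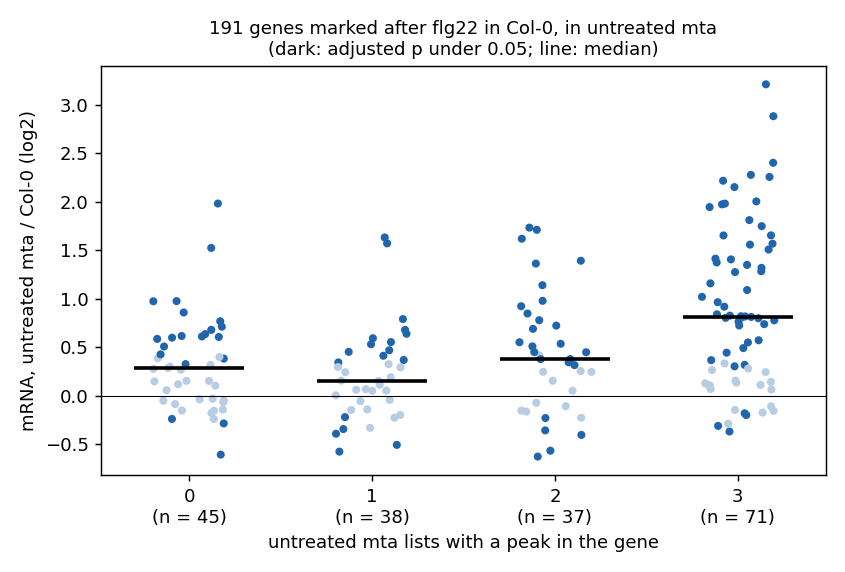
log2 difference of mRNA between untreated mta and untreated Col-0 for the 191 genes, grouped by the number of untreated mta lists with a peak; dark points passed at an adjusted p of 0.05 and lines are medians. The median is 0.81 for the 71 genes with a peak in all 3 lists and lies between 0.15 and 0.38 in the other groups.

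A gain of peaks was also seen in the other lines for part of the genes, counted by any summit in the gene and not by site. In mta 16 of 191 met the same rule, a peak in all 3 flg22 lists and no untreated list (0.362% of all genes with the CPM minimum), and 0 met the opposite one (1.86%). In 35SALKBH10B 43 met the rule (1.17%) and 0 the opposite one (1.54%). Both lines gained the peak in 8 genes and at least one line in 51. In 35SALKBH10B peaks were listed for 101, 31 and 34 genes untreated and for 124, 154 and 113 with flg22. That is 16.2% to 52.9% and 59.2% to 80.6%, against 75.01% to 85.3% and 73.7% to 80.7% of all genes with the CPM minimum. Without untreated replicate 1, which stood apart with 101 genes, 63 genes met the rule. Counted by lists, 133 genes had a peak in more flg22 than untreated 35SALKBH10B lists and 26 in fewer. In mta 85 had more, 15 fewer and 91 equal numbers. These counts by lists, and the 8 and 51 genes above, were not made over all genes with the CPM minimum and have no baseline here. The opposite rule's 129 genes were listed less with flg22, in 79, 90 and 89 untreated and 45, 11 and 38 flg22 lists' genes of mta. A peak in none of the 12 lists of both lines was seen for AT4G24730, and in all 12 for AT1G29290, ASN1 and AACT1, which were picked out after their values were seen.

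**Figure D4:**
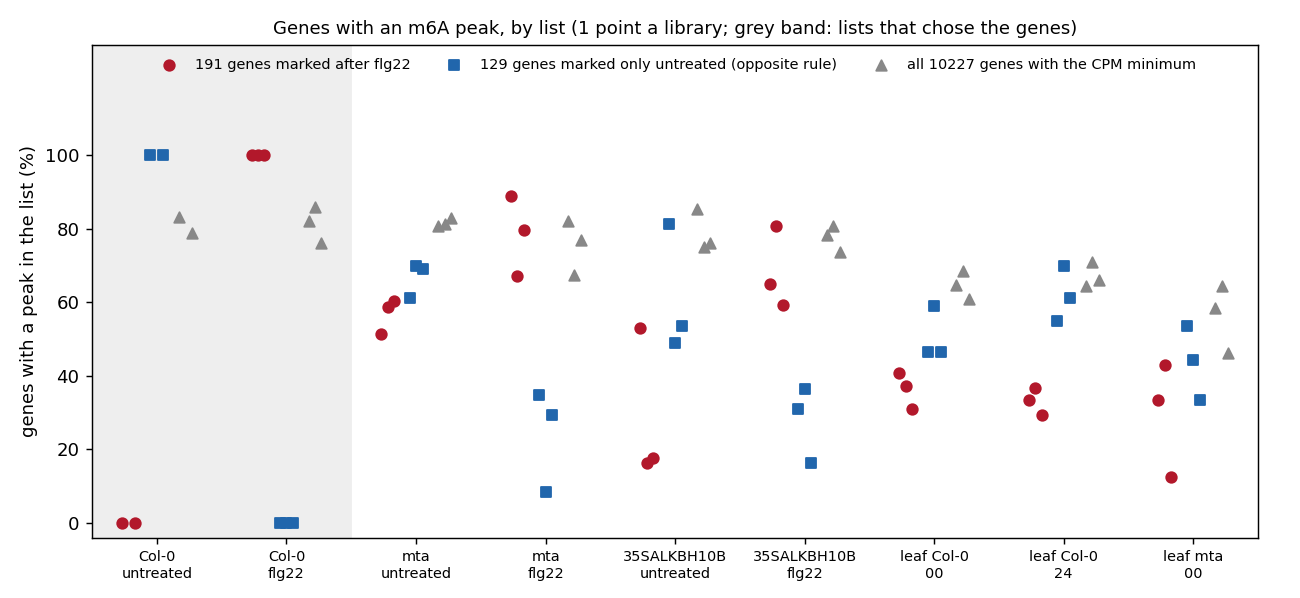
Share of genes (%) with a peak in each list, with 1 point per library; the grey band marks the lists that chose the genes. Of the 191 genes marked after flg22, 51.3% to 60.2% had a peak in the untreated mta lists and 67.0% to 89.0% in the mta flg22 lists, and the 129 genes of the opposite rule moved the other way.

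Single genes that gained the peak in the other lines had varied roles. AT5G45000 gained it in both, with enrichments of 6.57, 4.75 and 5.54 in the mta flg22 lists and 4.26, 6.64 and 4.53 in those of 35SALKBH10B, and its highest summits in Col-0 lay within 5 bases. HAC4, a histone acetyltransferase, gained it in mta at 4.90, 5.04 and 5.44, and FRA8, of xylan synthesis, at 5.68, 5.43 and 4.80. The peroxidase gene AT4G08780 gained it in 35SALKBH10B at 12.4, 10.3 and 4.57. CCR2, a cinnamoyl-CoA reductase of the lignin pathway, did so at 6.81, 7.75 and 6.44, and MLO6 at 9.95, 9.09 and 6.11. PBS3 gained a peak in 35SALKBH10B at 8.91, 8.86 and 5.76, but all 3 untreated mta lists held a peak in the gene at 3.46 to 4.46. YLS9, IGMT1 and IGMT2 also met the rule in 35SALKBH10B.

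Most genes that gained the peak in mta also rose there, as did the 191 genes as a whole (145). Of the 16 genes that gained it in mta 13 rose in mta mRNA, with a median of 0.98. Of the 63 with a peak in all 6 mta lists 54 rose, with a median of 0.87. Of the 11 with none 7 rose, with a median of 0.36, and of the other 101 genes 71 rose, with a median of 0.58. In uncapped RNA of mta 9 of the 16 rose, 33 of the 63, 1 of the 11 and 28 of the 101, against 8.94% of all genes with the CPM minimum. Of the 43 genes that gained the peak in 35SALKBH10B 34 rose in uncapped RNA of that line, with a median of 1.503, and of the 130 with mixed lists 52 rose, with a median of 0.61. Of the 6 genes with a peak in all 6 lists of that line 1 rose, and of the 12 with none 3 rose, against 13.6% of all genes with the CPM minimum. Over all 10227 genes with the CPM minimum, a peak in all 6 lists was found for 6395 in mta and 6416 in 35SALKBH10B. A peak in no list of the line was found for 1051 and 1031 of them.

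Uncapped RNA was measured by GMUCT, which sequences transcripts that have lost their cap and are cleaved or being degraded. The authors deposited it as reads-per-million (RPM) values, and fold changes are on the log2(RPM + 1) scale, which understates changes of low genes. In Col-0 it rose for 116 of 191 genes (13.9% of all genes with the CPM minimum) and fell for 7 (36.2%), a description of the contrast the rule used. The number that fell was 3 without flg22 replicate 1, 4 without flg22 replicate 2 or 3, and 1 on recovered reads. The median was 0.97, against −0.32 over all genes with the CPM minimum. These values are scaled by the library sum, and the median of all tested genes was −0.48. On recovered reads with TMM that median was −0.11, the median of the 191 genes was 1.51, and 149 of them rose. CYP82C2 went from 14.8, 2.90 and 14.2 RPM to 326, 428 and 453 RPM, where the low untreated value is that of the shallow replicate 2. SHV3, a cell wall protein, was among the 7 that fell, at 79.2, 268 and 106 RPM untreated and 72.0, 77.3 and 70.9 RPM with flg22, so replicate 2 carried most of its difference. A gene of the other strand overlaps 45.3% of SHV3.

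In mta, by limma with Benjamini-Hochberg adjustment, uncapped RNA rose for 71 genes (8.94%) and fell for 4 (14.5%), and without 1 library the number that rose was 44 to 59. CYP82C2 rose from 102, 94.9 and 65.9 RPM to 918, 866 and 908 RPM (3.37, adjusted p = 0.00063). PRX52 rose from 119, 156 and 134 RPM to 530, 710 and 730 RPM. The 4 that fell were KCS6 (−0.85 ± 0.23), KCS10 (−0.83 ± 0.19), AT1G78820 (−0.71 ± 0.19) and LECRKA4.1 (−0.56 ± 0.16). Their number was 1 without untreated replicate 2, 2 without flg22 replicate 2 or untreated replicate 3, and 1 on recovered reads.

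In 35SALKBH10B uncapped RNA rose for 90 genes (13.6%) and fell for 3 (10.6%), with a median of 0.74 against 0.01. Here 1 library decided much. YLS9 stood at 281, 278 and 20.8 RPM with flg22 and at 9.10, 13.4 and 8.94 RPM untreated, and CYP82C2 at 664, 573 and 70.3 RPM against 21.3, 17.2 and 14.1 RPM. The third flg22 library was the low one in both, although still above every untreated library. Without it 121 of the 191 genes rose and 10 fell. Without flg22 replicate 1 only 39 rose, without flg22 replicate 2 only 48 and without untreated replicate 3 only 55.

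Relative to mRNA, the uncapped RNA of these genes changed little past the threshold. In Col-0 the ratio of uncapped RNA to mRNA rose for 4 genes (0.243%) and fell for 0 (0.749%), as the interaction of library kind and treatment in limma, with a median of 0.00. The 4 were RPA1A (2.56 ± 0.21), AT5G41680 (2.48 ± 0.38), AT5G45000 (2.33 ± 0.22) and TBL9 (1.73 ± 0.22). Genes of the other strand overlap 35.9%, 19.8%, 28.9% and 66.4% of them. The mRNA counts mix both strands, so these ratios are uncertain. As stated above, untreated uncapped RNA and untreated mRNA were also sampled at different times.

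**Figure D5:**
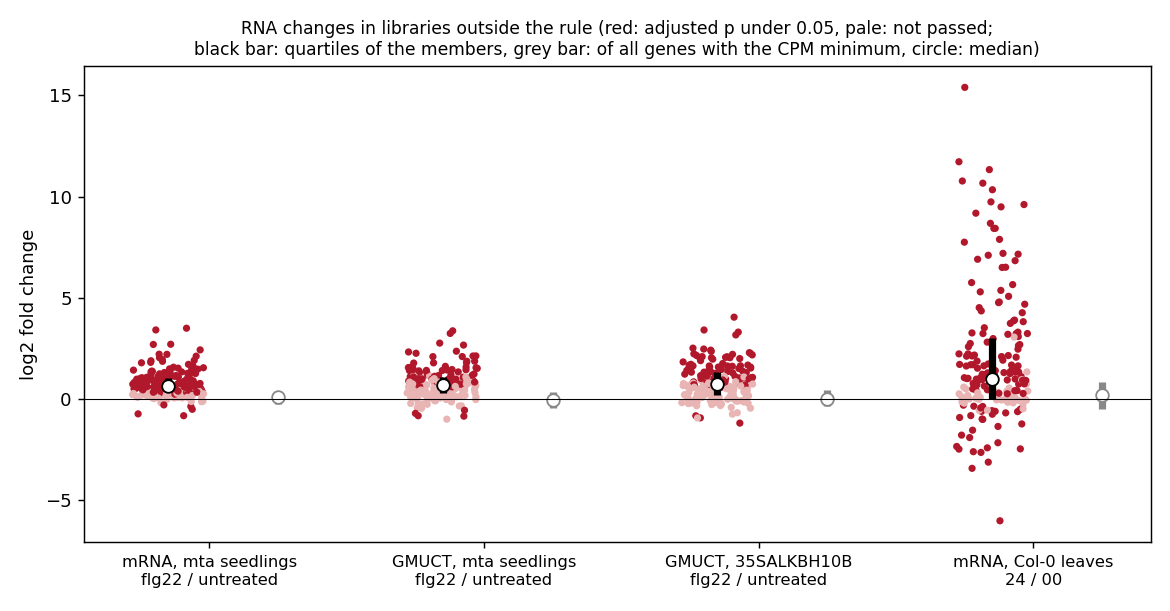
log2 fold changes of the members tested in 4 comparisons that the rule did not use; red points passed at an adjusted p of 0.05 and pale points did not, bars are quartiles and circles medians of the members (black) and of all genes with the CPM minimum (grey). The medians of the members are 0.64, 0.69, 0.74 and 0.98 from left to right, each above that of all genes.

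In leaves the genes changed both ways. Between Col-0 leaves at 24 and 00, 183 of the 191 genes were tested by edgeR's quasi-likelihood test; 111 rose (43.5% of the genes with the CPM minimum that were tested) and 30 fell (29.5%). The median log2 fold change was 0.98, against 0.18. PBS3 rose from 7.22, 6.82 and 7.52 CPM to 693, 555 and 713 CPM (6.51 ± 0.35, adjusted p = 5.0e-08). PRX52 rose from 0.0229, 0 and 0 CPM to 19.9, 24.7 and 16.7 CPM. LYK4, a LysM receptor kinase of chitin sensing, rose by 1.73 (adjusted p = 5.9e-06). KCS10 fell by 2.16 ± 0.20 (adjusted p = 2.7e-06) and KCS6 by 0.76 ± 0.12 (adjusted p = 0.00021). HCT, of the lignin pathway, fell by 1.36 ± 0.14 and HAC4 by 1.01 ± 0.10, while both had risen with flg22 in seedlings. IGMT1 did not pass (0.04 ± 0.57, adjusted p = 0.96). In 35 genes RNA rose in all 4 comparisons outside the rule, namely mta mRNA, uncapped RNA of mta and of 35SALKBH10B, and leaf mRNA. The same count over all genes with the CPM minimum was not made, so this number has no baseline here.

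In leaves the gain of peaks was close to that of genes at large. Peaks were listed for 78, 71 and 59 of the 191 genes at 00 and for 64, 70 and 56 at 24, and for 64, 82 and 24 in mta leaves at 00. The Col-0 shares of 30.9% to 40.8% at 00 and 29.3% to 36.6% at 24 stand beside 61.0% to 68.6% and 64.4% to 71.0% of all genes with the CPM minimum. At the level of the rule 4 genes had a peak in all 3 lists at 24 and in none at 00 (1.36%), or 1 gene with peaks of −log10 q of 2 or more, and 5 the reverse (0.88%). The 4 were AT1G10900, GLYI4, CYP76C2 and AT5G34930. The 5 were LYM2, a chitin-binding receptor-like protein, the calcium-dependent kinase CPK30, AMT2, AT3G07320 and AT5G66790. More lists at 24 than at 00 held a peak in 27 genes, fewer in 40 and as many in 124, counts not made over all genes with the CPM minimum. Leaf lists reach to p 0.01 and seedling lists to q 0.01, so the tissues are not compared.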

How the data were processed

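For m6A, the authors deposited 1 narrow-peak list per library, split by strand, in which each peak has a fold enrichment (a ratio), −log10 p and −log10 q. The integer score per peak that the authors deposited beside them was not used. The submitters' processing notes name MACS2, STAR and TAIR10 and give no version. Summits were assigned to genes on the strand opposite to the file, which placed at least 99.2% of them. For mRNA the authors deposited whole read counts per feature, by featureCounts 2.0.1 in seedlings per the file headers; 12 columns that map to no sample were not used. Uncapped RNA was deposited as RPM scaled by the library sum, and 100% of values divided back into whole reads within 0.01.

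In R 4.3.3, edgeR 4.0.16 fitted mRNA counts (quasi-likelihood, TMM, filterByExpr, Benjamini-Hochberg over all tested genes, threshold 0.05; 19887 seedling and 18824 leaf genes), and printed CPM are TMM-scaled unless stated. Uncapped RNA was fitted with limma 3.58.1 on the log2(RPM + 1) scale, over 19277 genes that reached an RPM of 1 in 3 or more libraries. All groups of a kind of library shared 1 fit, tested first on simulated data. DESeq2 1.42.0, other scalings, filters and pseudocounts, left-out libraries and a replicate block were alternatives.

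The genes and the functional lists were chosen with earlier results of these data known. Named are genes in the lists, the 8 with the highest mean enrichment, the 8 that rose and the 8 that fell most in Col-0 mRNA, the 4 each in uncapped RNA, the 6 most enriched that gained the peak in mta or 35SALKBH10B, and those at the CPM minimum; other names are chosen after their values were seen. Symbols come from RefSeq (32570 of 32844 loci matched).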

Additional observations from a re-analysis of the deposited data

Results flagged for a closer look

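The values here are differences of the mRNA response to flg22 (log2 fold change in mta minus that in Col-0) that passed edgeR's interaction test at an adjusted p of 0.05. The Col-0 side is the contrast the peak rule used, so they describe these genes. The enzymes of defence metabolism differed by −3.14 for IGMT2, −2.46 for IGMT1, −2.15 for CYP82C2, −2.61 for ACS2, −2.17 for CCR2, −1.06 for PBS3, −0.81 for GSTU10 (overlapped over 98.4% by a gene of the other strand, which the mRNA counts do not tell apart) and −1.31 for the gene named FMO. The peroxidases differed by −2.85 (PRX52), −2.22 (AT4G08780), −2.08 (AT1G14550) and −1.96 (PER4), and AT1G26410 by −2.34. Peptide, membrane and trafficking genes differed by −2.43 (PROPEP2), −2.29 (ATGLR1.2), −1.997 (MLO6), −1.91 (YLS9) and −1.71 (RABA1e). Other genes named for their peaks differed by −1.83 (AT1G09932), −1.16 (AT5G04310), −1.09 (AT3G07320), −0.93 (AT3G22620), −0.82 (AT1G05340) and −0.65 (HAC4). KCS6 (0.48) and RPA1A (0.62) fell less in mta.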

How the results depend on the processing

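The genes meeting the rule were 0.582% of all gene loci. They were 0.317% at a CPM minimum of 20 (104 genes), 1.13% with no minimum (372) and 0.0578% with summits placed on the file's own strand (19); with peaks of −log10 q of 5 or more they were 237, 68 of them among the 191. Without 1 Col-0 list they were 0.612% to 1.41%, with 464 genes without untreated replicate 2 and 305 without flg22 replicate 3. In mta 10 genes gained the peak at −log10 q of 5 or more, and 16 to 24 without 1 list. In 35SALKBH10B it was 34 at −log10 q of 5 or more, and 43 to 63 without 1 list. In leaves it was 4 to 6 without 1 list, or 1 at −log10 q of 2 or more. The last 10% of the gene held 16.1% of summits. With a fold of 2 or more, 1 gene fell in Col-0 mRNA, 50 rose and 0 fell in mta, 55 differences were negative and 0 positive, and in untreated mta 38 genes were higher and 0 lower. Library-sum scaling, chosen after seeing the data like all settings for GMUCT of mta and 35SALKBH10B and for leaves, gave 14 that fell in Col-0, 9 that fell in mta and 5 positive differences. On recovered reads 149 genes rose and 1 fell in uncapped RNA in Col-0, 103 and 1 in mta, and 110 and 3 in 35SALKBH10B. With a pseudocount of 5, 7 ratios fell.

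Without 1 library, the numbers that rose and fell were 163 to 168 and 3 to 4 in Col-0 mRNA, 132 to 136 and 4 to 5 in mta mRNA, and 92 to 97 and 7 to 16 for untreated mta against Col-0. Differences were negative for 102 to 111 and positive for 2. In uncapped RNA they were 104 to 118 and 3 to 5 in Col-0, 44 to 59 and 1 to 4 in mta, 39 to 121 and 1 to 10 in 35SALKBH10B, and 4 to 5 and 0 for the ratio. In leaves they were 105 to 109 and 28 to 30. Replicate numbers were not used to pair the samples, since no comparison had every same-number residual correlation above 0.1. With 3 libraries per group this cannot exclude pairing. With a replicate block 165 rose and 4 fell in Col-0, 143 and 5 in mta, 111 differences were negative and 2 positive, and 102 genes were higher and 17 lower in untreated mta. Uncapped RNA gave 114 and 6 in Col-0, 68 and 4 in mta, 89 and 3 in 35SALKBH10B, and 4 and 0 for the ratio; leaves gave 112 and 31.

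Among named genes the direction turned for values near 0, and the cause was not tested. In Col-0 mRNA AT3G08890 gave −0.23 and AT3G58560 −0.37 with library-sum scaling. AT3G58560 gave −0.0020 with no filter and −0.039 to 0.077 without 1 library (−0.0027 and −0.014 without untreated and flg22 replicate 1), and SHV3 0.030 with RLE scaling or DESeq2 and −0.092 to 0.061 without 1 library (0.028 and 0.042 without untreated and flg22 replicate 3). Without 1 library the response difference ran from −0.054 to 0.19 for FRA8 and from −0.085 to 0.18 for AT3G08890 (−0.0027, −0.053 and −0.063 among them). In uncapped RNA AT3G08890 ran from −0.46 to 0.00036 and RRS1 from −0.0076 to 0.31. Recovered reads gave 0.27 for AT3G08890 and 0.19 for AT3G58560. Motif shares were not run for lack of a genome. The read depth behind the peak lists is not known, which limits every statement on absent peaks.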

Other observations

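Some gene families held several of the 191 genes; they were noticed after the values were seen, and are counted by symbol among genes with the CPM minimum, of which 1.87% met the rule. Of 14 genes of the EXO70 family, subunits of the exocyst that tethers secretory vesicles, 5 met the rule (EXO70D3, EXO70E1, EXO70E2, EXO70H1 and EXO70H4) and 6 had a peak in all 5 lists. In mta seedlings EXO70H1 rose from 25.5, 21.7 and 20.3 CPM to 67.3, 64.9 and 64.3 CPM (1.54 ± 0.12, edgeR adjusted p = 2.8e-13), while EXO70D3 did not pass (0.28 ± 0.13, adjusted p = 0.093). Of 7 glutamate receptor-like channel genes 4 met the rule (ATGLR1.2, GLR1.1, GLR1.3 and GLR2.5) and 0 had a peak in all 5 lists. Both ammonium transporter genes met it, AMT1;1 and AMT2. Of the other families counted, 3 of 4 IGMT, 2 of 8 KCS, 5 of 62 cytochrome P450 (CYP) and 4 of 55 ABC transporter genes met it. Reads of the near copies ATGLR1.2 and GLR1.3, and of IGMT1, IGMT2 and IGMT3, may be shared. Their family counts are therefore uncertain. In mta AMT1;1 stood at 171, 179 and 173 CPM untreated and 194, 224 and 202 CPM with flg22 (0.25 ± 0.08, adjusted p = 0.0089), and AMT2 did not pass (0.21 ± 0.09, adjusted p = 0.074). A gene of the other strand overlaps 81.1% of AMT1;1.

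AOX1D, an alternative oxidase of mitochondria, was high in untreated mta, at 119, 122 and 126 CPM, and did not pass with flg22 there (117, 107 and 109 CPM, −0.14 ± 0.08, adjusted p = 0.19). In Col-0 it stood at 27.4, 32.2 and 31.9 CPM untreated and at 123, 129 and 132 CPM with flg22. RALF1, a peptide signal that acts at the cell wall, started alike in both lines, at 16.7, 11.3 and 16.9 CPM in Col-0 and 13.2, 18.1 and 18.6 CPM in mta, and rose in mta to 92.1, 95.7 and 80.4 CPM (2.42 ± 0.13, adjusted p = 2.0e-18). Both genes were chosen after their values were seen.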
